A study of Mus musculus with 20 samples.

Results

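Signals of miRNA probes were compared between livers of klotho(-/-) mice and livers of their wild-type littermates. The 4 liver arrays, 2 from klotho(-/-) livers and 2 from wild-type livers, were taken by tissue and genotype from the 20 arrays of the series, which also covered lung, kidney, heart and spleen. All mice were 5-week-old males. The klotho(-/-) mice lack klotho throughout the body, so that the change is not specific to liver cells, and their strain is not given in the sources used here. By the study's account the 2 arrays of a genotype came from different individual mice. The chip carried 200 mouse miRNA probes and no probe for the klotho transcript, so that the genotype could not be checked on the arrays. A signal is a fluorescence intensity in arbitrary units after subtraction of the background. Signals called deposited are the authors' background-subtracted values, which were not scaled between arrays.

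Klotho is a transmembrane protein made mainly in the kidney, where it acts as a co-receptor for a phosphate-regulating hormone, and mice without it show features of premature aging. A mature miRNA guides a silencing complex to messenger RNAs through its seed, bases 2 to 8 counted from the 5′ end, and miRNAs that share a seed share many predicted targets. In liver, miR-122a is the dominant miRNA of hepatocytes, and the miR-29 family is known for repressing collagens and other matrix genes, with a low level in activated stellate cells.

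The sequences of the miRNAs that passed the test in liver, and of miR-29c, the remaining family member, are given first, because they show which probes share a seed. They are RefSeq mature sequences of the assembly GRCm38.p6, written 5′ to 3′, with the seed in capitals.
miR-29a: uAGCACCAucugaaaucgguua
miR-29b: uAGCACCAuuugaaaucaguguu
miR-29c: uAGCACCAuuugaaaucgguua
miR-31: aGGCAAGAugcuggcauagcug
The 3 miR-29 members have the same seed and differ only in the bases after it, whereas miR-31 has another seed. miR-29a lies at chr6:31062673-31062694 on the minus strand, beside 1 of the 2 copies of miR-29b at chr6:31063025-31063047. The other copy of miR-29b, at chr1:195037091-195037113 on the plus strand, lies beside miR-29c at chr1:195037600-195037621, both within the long non-coding RNA gene A330023F24Rik. miR-31 lies at chr4:88910614-88910635 on the minus strand, within the long non-coding RNA gene Gm49890. Because the members are so alike, hybridization of one to the probe of another was not tested.

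The klotho(-/-) arrays were brighter as a whole. The deposited signals summed to 10784 and 7890 on the klotho(-/-) arrays, against 4162 and 5630 on the wild-type arrays, a ratio of means of 1.91. Signals of at least 10 were found for 67 and 59 probes in klotho(-/-) livers and for 51 and 52 probes in wild-type livers. A probe was tested when its mean signal over the 4 arrays was at least 10, which left 61 of 200 probes. Of the 139 others, 8 reached 10 on any array and the highest signal was 26. In the deposited signals each klotho(-/-) array exceeded each wild-type array for 50 of the 61 tested probes (82%), and for the other 11 the genotypes overlapped. The median ratio of deposited means over the tested probes was 1.87, with quartiles of 1.53 and 2.14. By array number, the median ratio was 2.38 for the arrays numbered 1 and 1.26 for those numbered 2. Whether the general difference lies in the tissue or in RNA input, labelling or scanning cannot be told apart from these arrays. In bulk liver RNA, a smaller share of a cell type and less RNA per cell cannot be told apart either.

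**Figure D1:**
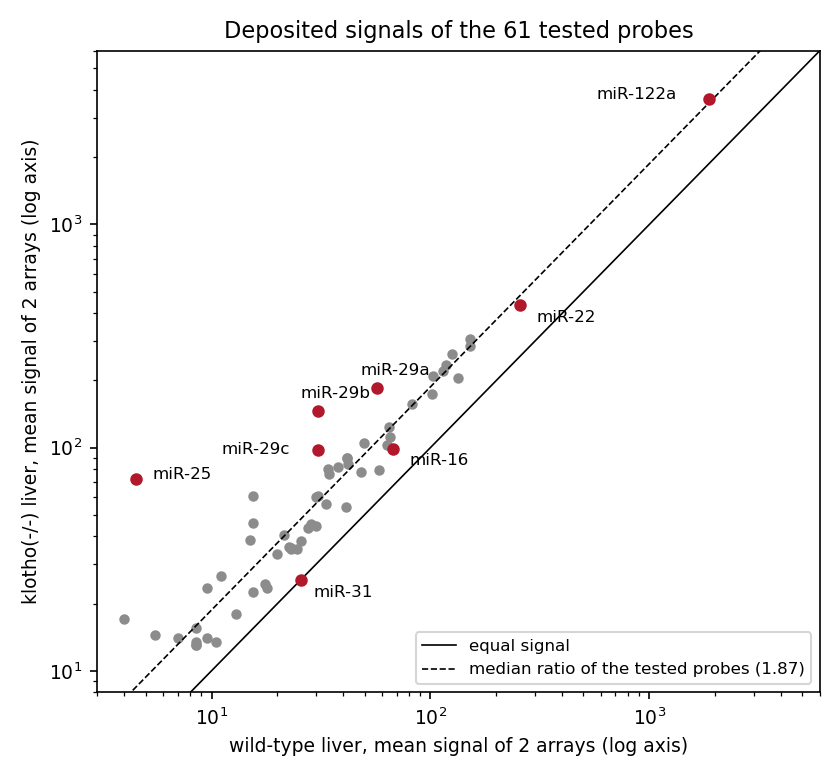
Mean deposited signal of each of the 61 tested probes in klotho(-/-) liver (vertical log axis) against wild-type liver (horizontal log axis), each the mean of 2 arrays, in arbitrary units. The solid line marks equal signals and the dashed line the median ratio of 1.87, and the 3 miR-29 probes and miR-25 lie above the dashed line while miR-31 lies on the solid line.

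Differences between genotypes were therefore taken after quantile normalization of the 4 liver arrays, as log2 of the signal with an offset of 50 added, which draws the differences of dim probes toward 0. The median difference, klotho(-/-) minus wild-type, was -0.03 over the tested probes after normalization, against 0.39 with no scaling between arrays. After normalization 39 of the 61 differences lay within 0.1 of 0, and 18 were positive, 40 negative and 3 equal to 0. With no scaling all 61 were positive, so that each negative difference given below holds only relative to the other probes. For 7 probes (11.5%) the klotho(-/-) arrays were both higher than either wild-type array, for 12 probes (19.7%) both lower, and for 42 the genotypes overlapped. In the limma model, with p-values adjusted by Benjamini-Hochberg over the 61 probes, 2 miRNAs rose in klotho(-/-) liver (3.28%), miR-29b and miR-29a, and 1 fell (1.64%), miR-31. At an unadjusted p under 0.05 there were 7 probes, 3 higher and 4 lower. The spread of a probe was pooled over 10 groups of 2 arrays. The model took all arrays as independent, and whether arrays of different tissues came from the same mice is not given in the sources used here. An exact permutation test of 2 arrays against 2 cannot go below p = 0.333, so that none is given for single miRNAs.

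The miR-29 family was higher in klotho(-/-) liver. miR-29b had deposited signals of 171 and 122 in klotho(-/-) livers, against 22 and 39 in wild-type livers. The genotypes did not overlap, as for 50 of the 61 tested probes (82%). The ratio of means was 4.80, or 7.77 and 3.13 for the arrays numbered 1 and 2. After normalization the signals were 107 and 107 in klotho(-/-) livers, against 37.1 and 58.0 in wild-type livers, a ratio of 2.25. The log2 difference was 0.69 ± 0.09 (SE of the limma model, n = 2 each; adjusted p = 0.000246). On each klotho(-/-) array miR-29b was the probe of rank 13 by brightness, while on the wild-type arrays it had ranks 33 and 26.

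miR-29a, cleaved from the same primary transcript as 1 copy of miR-29b, had deposited signals of 216 and 154 in klotho(-/-) livers and 47 and 67 in wild-type livers. The lower klotho(-/-) array was above the higher wild-type array, as for 82% of the tested probes, and the ratio of means was 3.25. After normalization the ratio was 1.72 and the log2 difference 0.54 ± 0.10 (SE of the limma model, n = 2 each; adjusted p = 0.00395). Its ranks were 9 and 10 in klotho(-/-) livers, against 16 and 17 in wild-type livers. Without klotho(-/-) Liver 1 the difference was 0.47 and no longer passed in limma (adjusted p = 0.0672), whereas miR-29b still passed (adjusted p = 0.00242).

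miR-29c had deposited signals of 106 and 90 in klotho(-/-) livers, against 25 and 36 in wild-type livers, a ratio of means of 3.21. The genotypes did not overlap, as for 82% of the tested probes. After normalization the ratio was 1.61 and the log2 difference 0.37 ± 0.21, which did not pass in limma (n = 2 each; adjusted p = 0.676). Its 4 normalized liver values left no spread within either genotype, since the ranks were 19 and 19 in klotho(-/-) livers and 30 and 30 in wild-type livers, and the SE came from the arrays of the other tissues. When the liver arrays were fitted alone, miR-29c passed in limma (adjusted p = 0.0188) and miR-29b, whose wild-type arrays were apart, did not (adjusted p = 0.246).

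Summed over the 3 members, the miR-29 signal was 493 and 366 in klotho(-/-) livers, against 94 and 142 in wild-type livers, a ratio of means of 3.64. The median log2 difference of the family was 0.54, beside -0.03 over all tested probes. The study chose this family on these same samples, so that its direction here is not independent evidence.

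**Figure D2:**
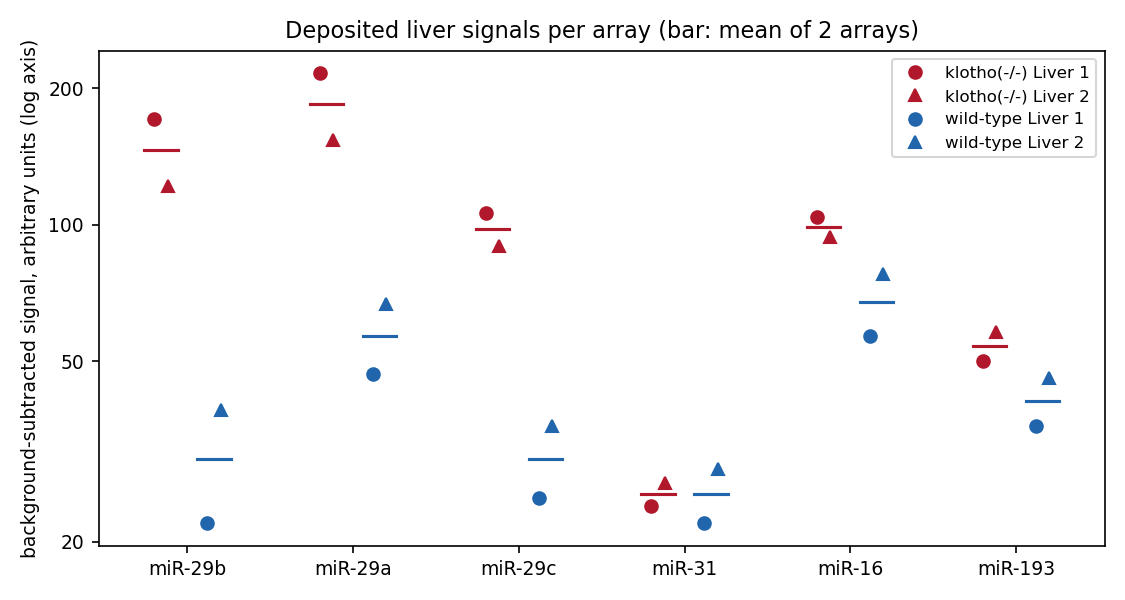
Deposited signal of 6 miRNAs on each of the 4 liver arrays (log axis, arbitrary units), klotho(-/-) in red left of wild-type in blue, circles for arrays numbered 1, triangles for arrays numbered 2, and bars for the mean of 2 arrays. The miR-29 members, miR-16 and miR-193 lie apart between genotypes, as did 50 of the 61 tested probes (82%), and the signals of miR-31 overlap. Those of miR-16 and miR-193 differ by less than the median ratio of 1.87.

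miR-31, which is known for repressing genes of cell movement and adhesion, was the only miRNA that fell among the tested probes, and its fall is a fall relative to the other probes. Its deposited signals were 24 and 27 in klotho(-/-) livers, against 22 and 29 in wild-type livers, a ratio of 1.00. The genotypes overlapped before scaling. After normalization the signals were 15.2 and 26.0 in klotho(-/-) livers, against 34.7 and 34.2 in wild-type livers, a ratio of 0.598. The log2 difference was -0.26 ± 0.06 (SE of the limma model, n = 2 each; adjusted p = 0.0315). With no scaling it was 0.00 (adjusted p = 0.998), since the general difference in brightness then stayed in the values. In ranks miR-31 stood at 51 and 44 in klotho(-/-) livers, against 35 and 36 in wild-type livers. It passed in 6 of 16 alternatives. Without klotho(-/-) Liver 1 the difference was -0.13 (limma, adjusted p = 0.668), and without klotho(-/-) Liver 2 it was -0.35 (adjusted p = 0.00236). Leaving out wild-type Liver 1 or wild-type Liver 2 gave adjusted p-values of 0.173 and 0.119.

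**Figure D3:**
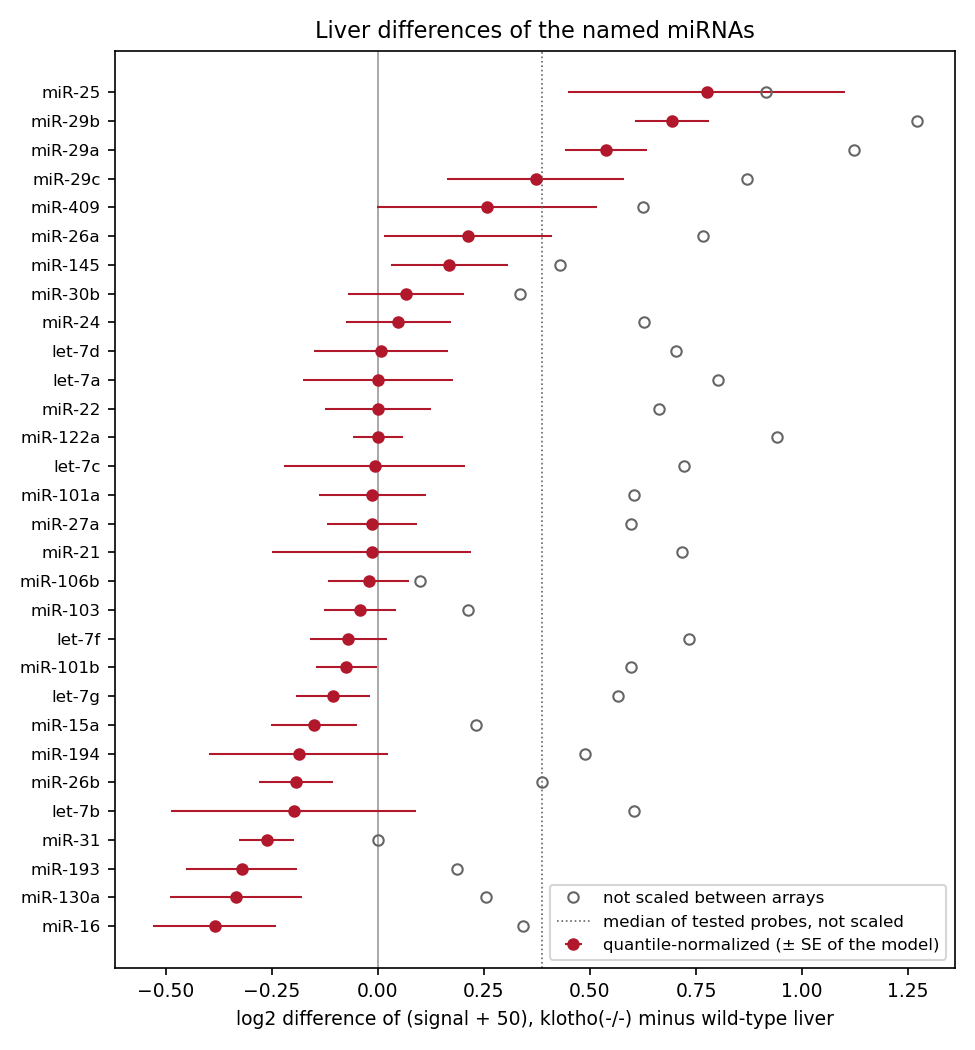
Log2 difference, klotho(-/-) minus wild-type liver, of the 30 miRNAs named by the rule, after quantile normalization (filled, with the SE of the limma model) and with no scaling between arrays (open). The dotted line marks the median of the tested probes with no scaling (0.39), and of the filled points those of miR-25, miR-29b and miR-29a lie to the right of it.

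Of the next miRNAs by p, none passed the adjustment, and most were lower relative to the other probes. The closest was miR-16, a repressor of cell-cycle genes such as those of the D-type cyclins. The members of its family on the chip that were tested share a seed, shown in capitals in the RefSeq sequences. All 4 had negative differences, as had 40 of the 61 tested probes.
miR-15a: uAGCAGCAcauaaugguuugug
miR-15b: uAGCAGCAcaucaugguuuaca
miR-16: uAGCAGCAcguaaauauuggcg
miR-195: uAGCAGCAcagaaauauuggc
miR-16 comes from 2 loci, within Smc4 at chr3:69009918-69009939 beside miR-15b, and within the long non-coding RNA gene Dleu2 at chr14:61631936-61631957 beside miR-15a. Its deposited signals were 104 and 94 in klotho(-/-) livers, against 57 and 78 in wild-type livers, a ratio of means of 1.47. That was higher in klotho(-/-) livers by less than the median ratio of 1.87. After normalization the log2 difference was -0.38 ± 0.15 (limma, n = 2 each; adjusted p = 0.321), and with no scaling it was 0.34. Ranks were 20 and 18 in klotho(-/-) livers, against 12 and 13 in wild-type livers. With the spleen arrays left out of the model miR-16 passed (limma, adjusted p = 0.0457).

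miR-15a had deposited signals of 48 and 41 in klotho(-/-) livers and 25 and 35 in wild-type livers, and a log2 difference of -0.15 ± 0.10. miR-195 had 38 and 32 in klotho(-/-) livers, against 20 and 29 in wild-type livers, and a difference of -0.09 ± 0.08. miR-15b had 17 and 10 in klotho(-/-) livers, against 8 and 13 in wild-type livers, and a difference of -0.07 ± 0.12. The 4 tested members of this family had a median difference of -0.12 after normalization, and of 0.21 with no scaling. None passed in limma, where 3 of the 61 tested probes did, and 1, miR-16, had an unadjusted p under 0.05, as had 7 of the 61. The remaining member on the chip, miR-497, was too dim to be tested.

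miR-193, known from human cells to repress urokinase, had deposited signals of 50 and 58 in klotho(-/-) livers, against 36 and 46 in wild-type livers. Both klotho(-/-) arrays were the brighter ones, by a ratio of 1.32, and the normalized difference was -0.32 ± 0.13 (limma, n = 2 each; adjusted p = 0.359). miR-130a, a repressor of the adipocyte regulator Pparg, had 77 and 81 in klotho(-/-) livers and 44 and 73 in wild-type livers, with a normalized difference of -0.33 ± 0.16 (adjusted p = 0.402). miR-130b, which shares its seed, had 22 and 25 in klotho(-/-) livers, against 13 and 23 in wild-type livers, and a difference of -0.12 ± 0.12.

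The miR-26 pair lay on both sides of 0 after normalization. miR-26b had deposited signals of 81 and 75 in klotho(-/-) livers, against 38 and 58 in wild-type livers, and a normalized difference of -0.19 ± 0.09 (limma, n = 2 each; adjusted p = 0.402). With quantile normalization over all 20 arrays it was -0.53 and passed (adjusted p = 0.0286). miR-26a, with the same seed, had 219 and 198 in klotho(-/-) livers, against 84 and 121 in wild-type livers, and a difference of 0.21 ± 0.20. Their difference from each other was not tested. Both lie within genes of the Ctdsp phosphatases, which are their known hosts.

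miR-25 had the highest log2 difference of the tested probes and rested on 1 array. It is shown with miR-92, which shares its seed.
miR-25: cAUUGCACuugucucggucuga
miR-92: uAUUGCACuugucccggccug
The deposited signals of miR-25 were 8 and 136 in klotho(-/-) livers, against 4 and 5 in wild-type livers. Only klotho(-/-) Liver 2 stood above 10. The log2 difference was 0.77 ± 0.33 (limma, n = 2 each; adjusted p = 0.359). Without klotho(-/-) Liver 2 it was -0.01, and without klotho(-/-) Liver 1, which left the bright array alone, it was 1.34. On the arrays of the other tissues the signal was 18 to 82. miR-25 lies within Mcm7 at chr5:138165332-138165353, in the cluster of miR-106b and miR-93. miR-93 had signals of 26 and 19 in klotho(-/-) livers, against 12 and 19 in wild-type livers, and miR-106b had 14 and 12 in klotho(-/-) livers, against 7 and 10 in wild-type livers. miR-92 had 21 and 10 in klotho(-/-) livers and 8 and 9 in wild-type livers. None of these partners was bright on klotho(-/-) Liver 2 beside the other arrays.

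The brightest probes included those of well-known liver miRNAs. Of the 10 brightest 0 passed in limma after normalization, beside 3 of all 61, and 0 had an unadjusted p under 0.05, beside 7 of 61. For 3 of these 10, miR-122a, miR-22 and let-7a, normalization fixed the difference at 0, so that they could not pass. Probes bind with unequal strength, so that the order of signals is not an order of amounts. miR-122a, the hepatocyte miRNA that acts in cholesterol and lipid metabolism, had deposited signals of 4196 and 3120 in klotho(-/-) livers, against 1625 and 2125 in wild-type livers. The genotypes did not overlap, as for 82% of the tested probes. The ratio of 1.95 was close to that of the array sums, of which this probe itself forms a large part. As the brightest probe on all 4 arrays it has a normalized difference of 0 by construction, as has miR-22, the second on all 4, and the ranks of let-7a, 3 and 4 in both genotypes, likewise fix its difference at 0. With no scaling, the difference of miR-122a was 0.94 (limma, adjusted p = 0.00368), and with scaling to a common median it was -0.05. The difference of miR-122a therefore turns on the choice of scaling.

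miR-22 had deposited signals of 478 and 390 in klotho(-/-) livers, against 228 and 283 in wild-type livers. miR-194, made with miR-192 in liver and gut epithelium, had 216 and 193 in klotho(-/-) livers, against 103 and 163 in wild-type livers, with a normalized difference of -0.19 ± 0.21. miR-192 had 35 and 36 in klotho(-/-) livers, against 18 and 28 in wild-type livers, with a difference of -0.03 ± 0.05. For all 3 both klotho(-/-) arrays were the brighter ones before scaling, as for 50 of the 61 tested probes (82%). None passed in limma after it, beside 3 of all 61. miR-22 could not pass, since its rank was the same on every liver array.

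miR-21, which is known to rise in fibrosis and in regenerating liver, had deposited signals of 382 and 141 in klotho(-/-) livers, against 116 and 134 in wild-type livers. One klotho(-/-) array was far above the other 3, and the normalized difference was -0.01 ± 0.23.

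The let-7 family, which holds back growth-promoting genes such as the Ras genes, had 8 tested members, of which 0 passed in limma, beside 3 of all 61 tested probes, and 0 had an unadjusted p under 0.05, beside 7 of 61. So few members cannot be told from that background, and let-7a could not pass, since its ranks fix its difference. let-7a, the brightest, had 393 and 222 in klotho(-/-) livers, against 120 and 183 in wild-type livers. The others with the highest signals were let-7f, with 325 and 244 in klotho(-/-) livers and 117 and 187 in wild-type livers, and let-7c, with 306 and 163 in klotho(-/-) livers and 100 and 135 in wild-type livers. All 8 were brighter on both klotho(-/-) arrays before scaling, beside 82% of the tested probes, and their normalized differences ran from -0.20 (let-7b) to 0.01 (let-7d), with a median of -0.01.

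In the families that follow 0 miRNAs passed the limma test, beside 3 of all 61, and miR-25 alone had an unadjusted p under 0.05, beside 7 of 61. The miR-17 group, clusters of growth-promoting miRNAs to which miR-25 belongs, had 9 tested members with a median difference of -0.04. The 5 tested members of the miR-30 family, abundant in many epithelia, had a median of -0.05. The 5 miRNAs of the clusters that join miR-23, miR-24 and miR-27 members had a median of -0.01, and the miR-101 pair, known repressors of the histone methyltransferase Ezh2, -0.04. All 4 medians were close to the -0.03 of all tested probes.

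The lists drawn by function held few tested members. Of the fibrosis-linked list, 6 of 8 members on the chip were tested, of which miR-29a and miR-29b rose and miR-31 fell. These are the same 3 probes that passed among all 61, of which 3.28% rose and 1.64% fell. miR-199a and miR-199a*, the stellate cell members of that list, were not tested: miR-199a* had deposited signals of 10 and 8 in klotho(-/-) livers, against 4 and 4 in wild-type livers. In the lipid and glucose list, miR-103, a regulator of insulin sensitivity, had 34 and 36 in klotho(-/-) livers, against 19 and 27 in wild-type livers, with a normalized difference of -0.04 ± 0.08. Of the p53-linked list, miR-34a, which p53 induces, was too dim to be tested, with 4 and 4 in klotho(-/-) livers, against 6 and 7 in wild-type livers. Of the innate immune list, miR-146 had 12 and 7 in klotho(-/-) livers, against 3 and 6 in wild-type livers, and miR-155 was at 2 or below on all 4 arrays.

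**Figure D4:**
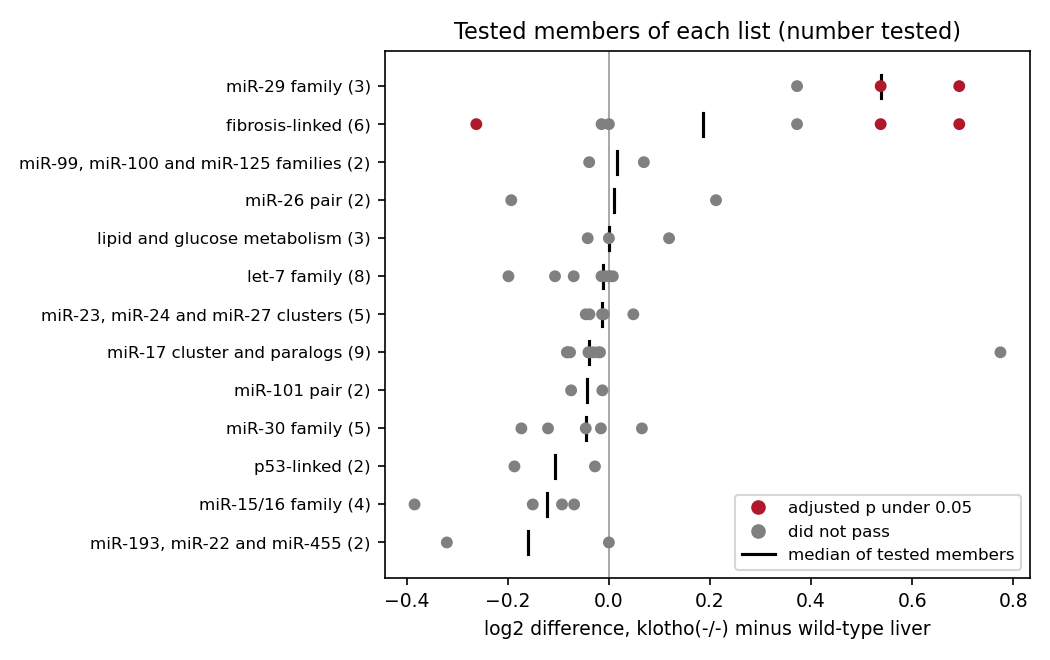
Log2 difference after normalization, klotho(-/-) minus wild-type liver, of each tested member (points) of the miRNA lists with at least 2 tested members, with the number tested in parentheses and the median as a black bar. Red points passed the limma test at an adjusted p under 0.05: miR-29a and miR-29b on the right and miR-31 on the left, which also stand in the fibrosis-linked list.

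The markers of other cell types bright enough to be tested, miR-126-3p, miR-143 and miR-145, were brighter on both klotho(-/-) arrays before scaling. The same held for 82% of the tested probes, and none of these markers passed in limma after normalization, beside 3 of all 61. The endothelial pair, miR-126-3p and miR-126-5p, summed to 99 and 74 in klotho(-/-) livers and 37 and 50 in wild-type livers, nearly all of it miR-126-3p, whose normalized difference was -0.07 ± 0.12. The smooth muscle pair summed to 104 and 85 in klotho(-/-) livers and 43 and 54 in wild-type livers, with normalized differences of -0.16 for miR-143 and 0.17 for miR-145. The 4 leukocyte markers on the chip summed to 12 and 12 in klotho(-/-) livers and 8 and 9 in wild-type livers, and the 2 fibroblast markers to 17 and 13 in klotho(-/-) livers and 7 and 7 in wild-type livers. miR-144, the marker of red cell precursors, had 13 and 9 in klotho(-/-) livers and 5 and 6 in wild-type livers. The 4 biliary and other epithelial markers summed to 12 and 14 in klotho(-/-) livers, against 8 and 11 in wild-type livers. The brain, islet and striated muscle markers were at 3 or below on every array. The part of these cells in the miR-29 result was not tested.

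The study's fold limits, above 1.5 or under 0.5, were applied here to the ratio of klotho(-/-) to wild-type for arrays numbered 1 and for arrays numbered 2, and both ratios had to pass. In the deposited signals 11 of the 61 tested miRNAs passed as higher (18%) and 0 as lower. These were the 3 miR-29 members, miR-101a, miR-101b, miR-145, miR-24, miR-25, miR-26a, miR-27a and miR-30b. miR-126-3p, with ratios of 2.69 and 1.5, stood at the limit and did not count. The members therefore differ from the study's main table, which lists miR-126-3p for liver and does not list miR-25 there. miR-101b, for example, had 131 and 116 in klotho(-/-) livers, against 55 and 75 in wild-type livers, and miR-24 had 120 and 89 in klotho(-/-) livers, against 42 and 57 in wild-type livers. After normalization the same rule left 3 (4.92%), the 3 miR-29 members, and 0 lower. miR-101b then had a difference of -0.07 ± 0.07 and miR-24 one of 0.05 ± 0.12.

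A few dim miRNAs crossed a signal of 10 between the genotypes. Of the 61 tested probes 4 were at 10 or above on both klotho(-/-) arrays and under 10 on both wild-type arrays. They were miR-125b, miR-140*, miR-185 and miR-92. With both wild-type arrays under 10, they met the mean signal of 10 needed for testing only through the klotho(-/-) arrays. Before scaling, both klotho(-/-) arrays were the brighter ones for 50 of the 61 (82%). miR-185 had deposited signals of 16 and 12 in klotho(-/-) livers and 5 and 9 in wild-type livers, and miR-125b had 17 and 10 in klotho(-/-) livers and 9 and 8 in wild-type livers. After normalization their differences were 0.04 ± 0.06 and -0.04 ± 0.14, and those of miR-140* and miR-92 were -0.03 and -0.02. Of the 139 untested probes 1 crossed in this way. It was miR-99a, of the miR-99 and miR-100 family, with 12 and 10 in klotho(-/-) livers, against 7 and 7 in wild-type livers.

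The liver difference was then set against the mean of the differences in lung, kidney, heart and spleen. In the limma model 0 of 61 probes passed (0%), and 3 had an unadjusted p under 0.05. The difference in liver minus the mean of the other tissues was 0.11 ± 0.10 for miR-29b (adjusted p = 0.866), 0.04 ± 0.11 for miR-29a (adjusted p = 0.958) and 0.04 ± 0.23 for miR-29c (adjusted p = 0.987). With quantile normalization over all 20 arrays the value of miR-29b was 0.57 and passed (adjusted p = 0.0457), so that a departure of liver from the other tissues depended on the scaling for this miRNA. For miR-31 it was -0.26 ± 0.07 (limma, unadjusted p = 0.00322, adjusted p = 0.196), with differences of -0.26 in liver, -0.05 in lung, 0.12 in kidney, 0.02 in heart and -0.07 in spleen. miR-26b had -0.26 ± 0.10 and miR-25 had 0.91 ± 0.37 (adjusted p = 0.571 for both). With normalization over all 20 arrays miR-26b passed as well (-0.65, adjusted p = 0.0229), as did miR-31 (-0.57, adjusted p = 0.00425). miR-31 also passed with median scaling (-0.39, adjusted p = 0.0388), and without klotho(-/-) Liver 2 its value was -0.35. Without klotho(-/-) Liver 1 the value of miR-25 was 1.48, which rested on the 1 bright array that was left.

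The arrays of a genotype correlated less in klotho(-/-) than in wild-type liver, a difference that was not tested. Across the 61 tested probes, which are not independent replicates, the normalized values had a Pearson correlation of 0.937 and a Spearman correlation of 0.834 for the klotho(-/-) pair, against 0.987 and 0.969 for the wild-type pair. The median absolute difference between the arrays was 0.08 in klotho(-/-) liver and 0.07 in wild-type liver on the log2 scale. These medians were alike, while 5 probes were over 0.5 apart in klotho(-/-) livers, against 1 in wild-type livers.

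The probes that were apart formed a group. After normalization 7 probes were over 0.4 higher on klotho(-/-) Liver 1 than on klotho(-/-) Liver 2, by 0.42 to 0.90, and miR-25 was the 1 probe lower by as much. All 7 were also higher on wild-type Liver 1 than on wild-type Liver 2, by 0.14 to 0.67, as were 22 of the 61 tested probes. They were named after their values were seen. miR-296 had deposited signals of 131 and 29 in klotho(-/-) livers, against 43 and 25 in wild-type livers. miR-409 had 104 and 17 in klotho(-/-) livers, against 19 and 12 in wild-type livers. miR-290, known from embryonic stem cells, had 79 and 13 in klotho(-/-) livers, against 17 and 14 in wild-type livers. In each of these the array numbered 1 was the brighter one in both genotypes.

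The others were miR-21, given above, miR-291a-5p (44 and 9 in klotho(-/-) livers, 13 and 9 in wild-type livers), miR-291b-5p (39 and 8 in klotho(-/-) livers, 12 and 7 in wild-type livers) and miR-370 (32 and 2 in klotho(-/-) livers, 6 and 2 in wild-type livers). Some of their sequences are shown because the group holds runs of G or C.
miR-296: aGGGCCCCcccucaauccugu
miR-290: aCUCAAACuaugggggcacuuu
miR-291a-5p: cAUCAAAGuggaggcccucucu
miR-291b-5p: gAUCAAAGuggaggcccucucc
Of the 7 RefSeq sequences 6 hold GGG or CCC, miR-21 being the exception, and 50.5% of the 1674 distinct mature sequences of the RefSeq table do. The share among the 61 tested probes, from which the group was taken, was not counted, so that no enrichment can be read from this. miR-291a-5p and miR-291b-5p are nearly identical, so that their probes may read the same molecules. For none of the 7 did the genotype difference pass in limma. The part of RNA quality, labelling or the chip in these signals was not tested.

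**Figure D5:**
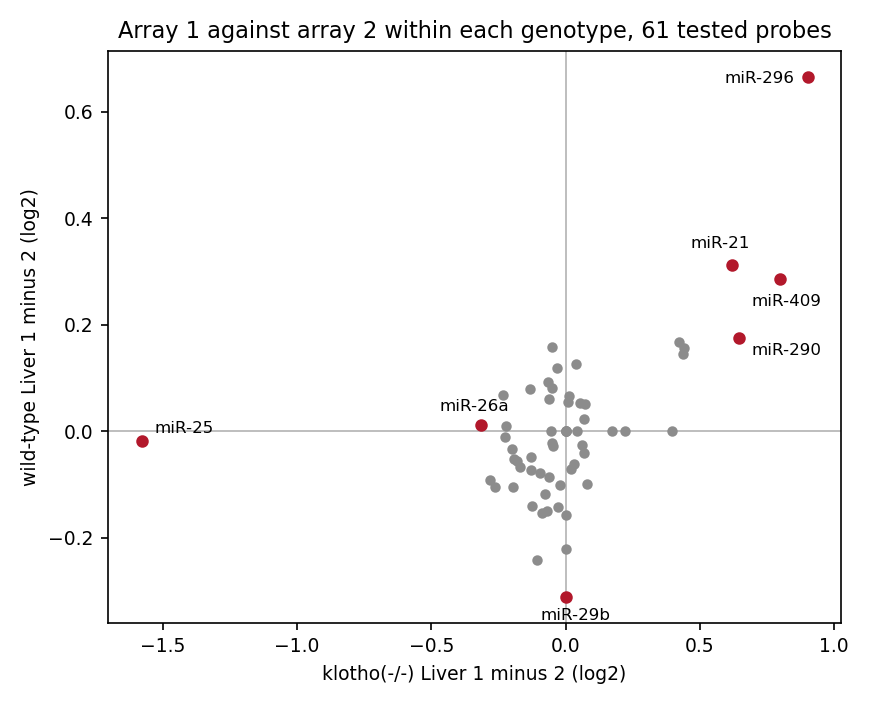
Difference between array 1 and array 2 after normalization (log2) in klotho(-/-) liver (horizontal axis) and in wild-type liver (vertical axis) for the 61 tested probes. miR-296, miR-409, miR-290 and miR-21 lie on the right and above 0, and miR-25 lies alone on the left.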

How the data were processed

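The authors hybridized small RNA, labelled with 1 dye, to a chip of 200 miRNA probes and deposited intensity in 2 forms: before background subtraction, and background-subtracted, rounded to whole numbers, with no scaling between arrays. The software of the scan is not given in the sources used here.

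From the first table, background was corrected by normexp (limma 3.58.1, R 4.3.3) with an offset of 50. The 4 arrays of each tissue were quantile-normalized, and log2 was taken. A limma model (lmFit, contrasts, eBayes with a trend) with 10 groups was fitted to 20 arrays and 129 probes, each with a mean signal of at least 10 in some tissue, with 10 residual degrees of freedom. P-values were adjusted by Benjamini-Hochberg over the 61 probes tested in liver, at a threshold of 0.05. Errors are the model's SE, since normalized arrays of equal rank have an SD of 0. The number of arrays, 2 per genotype, limits the precision. The limma step was tested on simulated log2 values, which did not cover background correction, the offset or normalization.

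The text names called miRNAs, the 10 smallest p-values, the 10 brightest probes, the 5 highest and 5 lowest differences, up to 5 of the contrast with other tissues, those past the fold limits, those that crossed a signal of 10, and members of the lists. The members and lists were chosen with earlier results of these data known. The 22 chip names that were looked up were matched by hand to current arm names of RefSeq, and sequences and positions are those of GRCm38.p6, while the build behind the chip is not given in the sources used here. Alternatives were other scalings, offsets, filters, sets of probes or arrays in the model, the array number as a block, the test named in the study's methods, its fold limits applied to both array numbers, and leaving out each liver array. Where that left a genotype with 1 liver array, its spread was taken to equal that of the remaining groups.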

Additional observations from a re-analysis of the deposited data

How the results depend on the processing

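Under the other scalings (to a common median, none, or quantiles over all 20 arrays), the deposited background-subtracted table, other offsets and filters, liver fitted alone, the spleen left out and 2 other sets of probes in the model, which were chosen after seeing the data, 2 to 4 miRNAs passed in limma, against 3 as reported. The split of higher to lower calls was 2 to 1 as reported, 1 to 1 with median scaling, 3 to 0 with no scaling and 1 to 2 with quantile normalization over all arrays. It was 2 to 0 with an offset of 8, no filter, a minimum mean signal of 30, liver fitted alone and both other sets of probes. In these miR-31 did not pass or was too dim to be tested. The members changed too: miR-29b, miR-101b and miR-122a passed with no scaling, and miR-29a and miR-29c with liver fitted alone. Leaving out each liver array gave 2 to 3 calls. The test of the study's methods, Student's t-test, gave 3 miRNAs at an unadjusted p under 0.05 and 0 after adjustment. These were miR-29a, miR-29b and miR-16, while miR-31 had an unadjusted p of 0.141 in Student's t-test. miR-29c had no spread within either genotype, so that this test gave it no p-value. The study's fold limits, applied to both array numbers in deposited signals, gave 11. miR-29b passed in 16 of 17 alternatives and miR-29a in 13 of 17, missing with median scaling (0.46, adjusted p = 0.0899), no scaling (1.12, 0.0647), normalization over all arrays (0.51, 0.0530) and without klotho(-/-) Liver 1. With no scaling all 61 differences were positive, so that the 40 negative ones turned, as the general brightness then stayed in the values. Among the named miRNAs, the negative ones whose size exceeded the SE with and without scaling were miR-16 (0.34), miR-193 (0.19), miR-26b (0.39), miR-101b (0.60, adjusted p = 0.0390) and let-7g (0.57). Against the other tissues, 1 miRNA passed with median scaling, 1 with no scaling (miR-122a), 3 with normalization over all arrays (miR-29b higher, miR-26b and miR-31 lower) and 0 to 1 when each liver array was left out. Arrays of one number deviated together (correlation 0.548 over 61 probes, 2 pairs). No sample label pairs them, but the study's own table sets them side by side as experiments 1 and 2. With the array number as a replicate block 2 miRNAs passed, miR-29a and miR-29b (adjusted p = 0.00183 for both), and miR-31 did not (adjusted p = 0.0975). The background and the dimness of most probes limit what these arrays show: 139 of 200 were not tested.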

Other observations

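Some probes too dim to be tested in liver had an uneven signal over the arrays, and they were named after their values were seen. miR-292-5p had deposited signals of 26 and 2 in klotho(-/-) livers, against 2 and 2 in wild-type livers, and miR-129-5p had 2 and 18 in klotho(-/-) livers, against 2 and 2 in wild-type livers. For miR-298, with 21 and 3 in klotho(-/-) livers and 7 and 2 in wild-type livers, the array numbered 1 was the brighter one in both genotypes. miR-376c had 2 and 2 in klotho(-/-) livers and 9 and 2 in wild-type livers.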
